A study of Juglans regia with 21 samples.

Results

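The pellicle is the thin brown seed coat that encloses the walnut kernel. Pellicle tissue of the *Juglans regia* cultivar Xinwen179, collected at 13 weeks after pollination (13W), is set here against pellicle collected at 11 weeks (11W). Each stage is represented by 3 poly(A) RNA libraries, so 6 of the 21 libraries of the series enter the comparison directly. The series follows field-grown pellicle at 7 stages to look for genes associated with its development. Both groups are pellicle of that 1 cultivar from a field in Aksu, the labels name no treatment, and only age separates the groups there. The hour of sampling and the number of fruits or trees per library are not given there. The p-values thus rest on how far libraries of 1 stage spread, pooled over all 21 libraries of the series. That spread may be technical in part. Every gene of the 31425 in the deposited table was eligible, and genes are described by the product names that the table carries.

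A seed coat develops from the integuments of the ovule, passes sugars, amino acids and minerals on to the growing embryo, and in walnut gathers the tannins and other phenolics that make the kernel astringent and prone to browning. Gene roles given here as background come from Arabidopsis or other model plants, not from walnut. Levels are scaled CPM (read counts as a share of the library total, adjusted by TMM factors), given per library in the order of replicates 1, 2 and 3 or as mean ± SD with n = 3. Changes are log2(13W over 11W) with the standard error, and a gene is said to have risen or fallen only where its adjusted p in edgeR's quasi-likelihood test was under 0.05. Positions are those of the deposited table, whose genome build is not given in the sources used here.

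Before the genes, a few properties of the libraries bear on the values. Total counts ran from 14362377 to 15030356 over the 6 libraries. Across genes, Spearman's rho was 0.982 to 0.994 between libraries of 1 stage and 0.883 to 0.922 between those of different stages. 11W replicate 1 stood apart from the other 11W libraries: 271 of 13638 genes with at least 10 CPM at 11W were over 2-fold higher in it, against 0 and 2 genes for replicates 2 and 3. 13W replicate 3 was over 2-fold above its companions in 43 of 12992 genes and below them in 28. 13W replicate 2 was over 2-fold below its companions in 60 of these genes and above them in 5. For some results that lean on 1 of these libraries, values without it are given as well.

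The seed coat label was checked against a list of seed coat identity genes and tannin enzymes. AGL11, the SEEDSTICK-type MADS-box gene that specifies ovule and seed coat identity in Arabidopsis (Jr2DG00016900, chromosome 2D, 1495566 to 1498887), stood at 307, 387 and 429.5 CPM in the 11W libraries against 783, 708 and 814 CPM in those of 13W. It was present in every library and higher in all 3 of 13W, a log2 change of 1.04 ± 0.0912 (SE, adjusted p = 7.37e-10). A TRANSPARENT TESTA 16 gene, a MADS-box regulator of the tannin-bearing inner coat (Jr3DG00159800), rose from 12.7 ± 1.84 to 23.5 ± 1 CPM. A second gene of that name (Jr3SG00077700), at 5.31 ± 2.19 CPM in 11W and 4.71 ± 0.044 CPM in 13W, did not pass (adjusted p = 0.513). Of the enzymes that form flavan-3-ols, a leucoanthocyanidin reductase (Jr8SG00002900) rose from 13 ± 1.52 to 23 ± 1.45 CPM, while an anthocyanidin reductase (Jr5DG00075400) fell from 81.1 ± 7.43 to 48.3 ± 7.49 CPM. Other copies in the list went the opposite ways. The leucoanthocyanidin reductase-like gene Jr8SG00081600 fell from 21.8 ± 3.41 to 0.646 ± 0.437 CPM. The anthocyanidin reductase Jr6SG00092000 rose from 6.62 ± 1.59 to 13 ± 2.56 CPM. In the whole list 7 of 22 rose, 6 fell and the median log2 change was -0.13. The list takes in several MATE transporters named TRANSPARENT TESTA 12 or 12-like. Of these Jr8DG00072500, Jr8SG00029700 and Jr8SG00053600 fell, Jr5DG00152200 rose and the others were not called. TRANSPARENT TESTA 1, a zinc finger regulator of the coat (Jr7DG00003900), fell, with 62.3, 9.85 and 20.2 CPM in the 11W libraries against 0.137, 0 and 0.906 CPM in those of 13W. Its 11W level was highest in replicate 1, and its fitted log2 change of -6.43 was -5.43 without that library and -8.62 without 13W replicate 3. A second gene of that name (Jr4SG00046300), at 1.9 ± 0.72 CPM in 11W and 1.26 ± 0.317 CPM in 13W, did not pass (adjusted p = 0.103).

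Most genes tested differed between the stages, and the steeper changes were more often falls. Of 21707 genes tested, 6974 rose (32.1%) and 7587 fell (35%), 67.1% in all. At least 2-fold was reached by 2139 rises (9.85%) and 3825 falls (17.6%), and at least 4-fold by 524 rises (2.41%) and 1626 falls (7.49%). The 3 libraries of 13W lay wholly above those of 11W in 33.3% of the genes and wholly below them in 35.1%. Levels are relative within each library, and in bulk tissue fewer cells of a type and less RNA per cell cannot be told apart. Because so many genes passed, the counts in each list below are to be read against these shares of all genes tested and against the transcriptome, whose median log2 change was -0.0397. A second median called bounded, given where it differs, sets members with 0 reads in a stage to their bound against a floor of 3 reads per library.

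**Figure D1:**
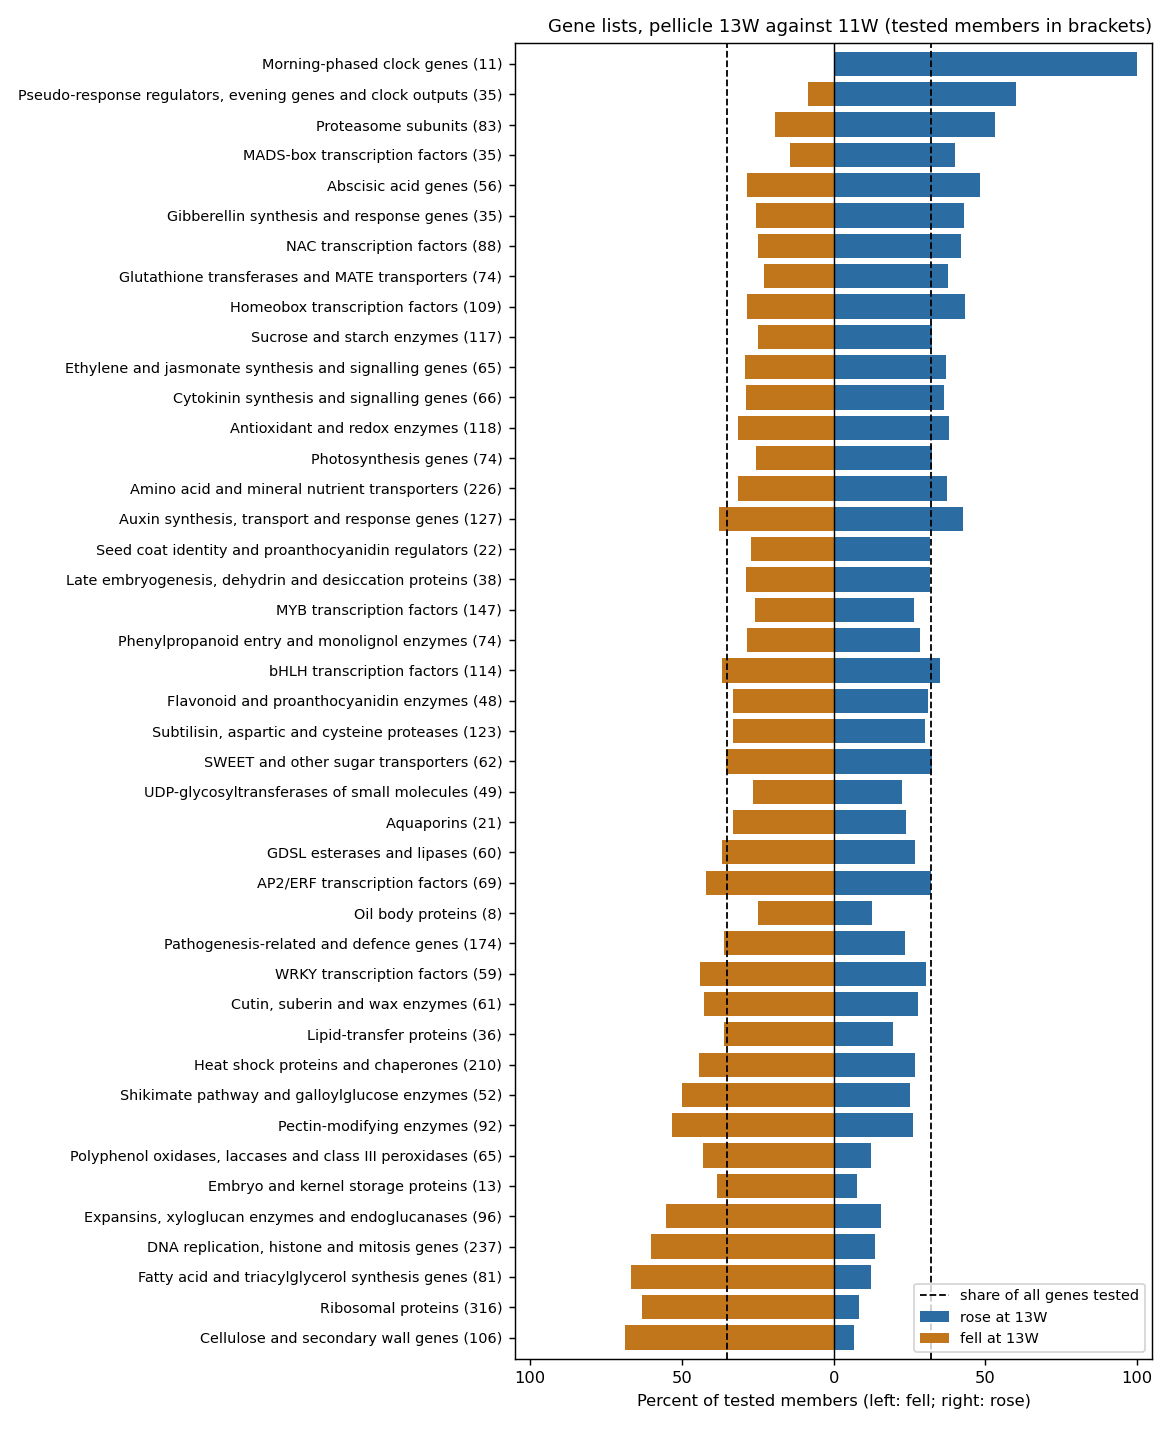
Percent of the tested members of each of 43 gene lists that rose (blue, to the right) or fell (orange, to the left) at 13W against 11W, with the shares over all genes tested, 32.1% and 35%, as dashed lines. Morning clock genes all rose, while cellulose and secondary wall genes, ribosomal proteins and fatty acid genes show the highest shares of falls.

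All 11 morning clock genes tested rose. The plant clock couples morning MYB factors of the LHY and REVEILLE type, day-phased pseudo-response regulators (PRR) and evening genes such as TOC1 in loops of repression, and transcripts of this set swing over each day. Of morning genes 11 of 11 rose, 0 fell and the median log2 change was 1.37, against 32.1% and 35% of all genes. Of 2 genes named LNK3, a coactivator that works with REVEILLE factors, the first (Jr3SG00066200, chromosome 3S, 9903951 to 9909131), stood at 4.82, 5.64 and 5.07 CPM in the 11W libraries against 205, 223 and 256 CPM in those of 13W. The libraries lay close within each stage and 43.9-fold apart between them, a log2 change of 5.46 ± 0.147 (SE, adjusted p = 1.81e-17). The second (Jr7SG00012200), with more reads, had 356.5, 251 and 258 CPM in the 11W libraries against 720.1, 748 and 776 CPM in those of 13W, 2.59-fold apart and without overlap. LHY itself (Jr1SG00053700, chromosome 1S, 8575975 to 8577510) had 9.91, 6.89 and 8.2 CPM in the 11W libraries against 44.4, 44.7 and 50.1 CPM in those of 13W, with no overlap and a log2 change of 2.48 ± 0.127 (SE, adjusted p = 5.52e-14). REVEILLE 1 (Jr2DG00070000), which links the clock to auxin in Arabidopsis, had 66.6, 37.1 and 40.7 CPM in the 11W libraries against 366, 360.1 and 377 CPM in those of 13W. The highest 11W value, in replicate 1, was far below the lowest of 13W.

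Most members of the joint list of day-phased genes, evening genes and clock outputs rose too. Of its evening genes TOC1, EARLY FLOWERING 3 and ELF4-LIKE 4, only TOC1 rose. In that list 21 of 35 rose, 3 fell and the median log2 change was 0.58. PRR9 (Jr1SG00052800) and PRR5 (Jr3SG00045800), repressors of the morning genes, rose from 11.2 ± 1.07 to 68.8 ± 4.38 CPM and from 23.9 ± 3.62 to 154 ± 11.6 CPM. PRR7 (Jr1DG00283200) stood at 148 ± 5.08 CPM in 11W against 162 ± 6.51 CPM in 13W and did not pass (adjusted p = 0.132). TOC1, the evening repressor (Jr6DG00046500), rose by 0.92 on the log2 scale, and EARLY FLOWERING 3, of the evening complex (Jr8DG00039900), stood at 163 ± 4.24 CPM in 11W against 159.5 ± 12 CPM in 13W (adjusted p = 0.722). DOF and CONSTANS-type output genes changed by more. Cyclic dof factor 2-like (Jr3SG00102900) had 0.275, 0 and 0.333 CPM in the 11W libraries against 26.5, 25.6 and 27.3 CPM in those of 13W, and cyclic dof factor 1 (Jr3DG00120200), both of a family that holds back CONSTANS in the morning, had 2, 1.51 and 1.27 CPM in the 11W libraries against 57.6, 56.9 and 60.4 CPM in those of 13W. CONSTANS-LIKE 9-like (Jr6DG00179900) had 5.64, 4.79 and 5.87 CPM in the 11W libraries against 137, 143 and 143 CPM in those of 13W. In these 3 genes the 13W libraries differed little among themselves and none came near a library of 11W; the log2 changes were 6.98, 5.19 and 4.70. Of 3 members that fell, an ELF4-LIKE 4 gene (Jr1SG00137100) went from 7.74 ± 1.06 to 5 ± 0.863 CPM, and a CONSTANS-LIKE 2 gene (Jr3DG00232800) from 13 ± 1.82 to 6.65 ± 0.681 CPM; the third, a CONSTANS-LIKE 2-like gene (Jr6SG00098000), lost its call in 3 of the fits that leave out a library, with adjusted p = 0.222 without 11W replicate 1, 0.148 without 13W replicate 1 and 0.0516 without 13W replicate 3.

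The stages on either side give these values a frame, as a description with no test. The summed level of the 11 morning genes went from 1683 ± 128 CPM at 9W down to 576 ± 68.2 CPM at 11W, then 1850 ± 61.9 CPM at 13W and finally 1625 ± 97.1 CPM at 15W. LNK3 (Jr3SG00066200) averaged 527 ± 71.8 CPM in 9W libraries and 11.3 ± 1.46 CPM in those of 15W, and LHY (Jr1SG00053700) 44.8 ± 1.63 and 21.6 ± 0.535 CPM. The other LNK3 gene (Jr7SG00012200) averaged 499 ± 32.7 CPM in 9W libraries and 1023 ± 88.2 CPM in those of 15W, and so made up most of the 15W sum. With no hour of sampling in the labels, stage and hour cannot be told apart.

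**Figure D2:**
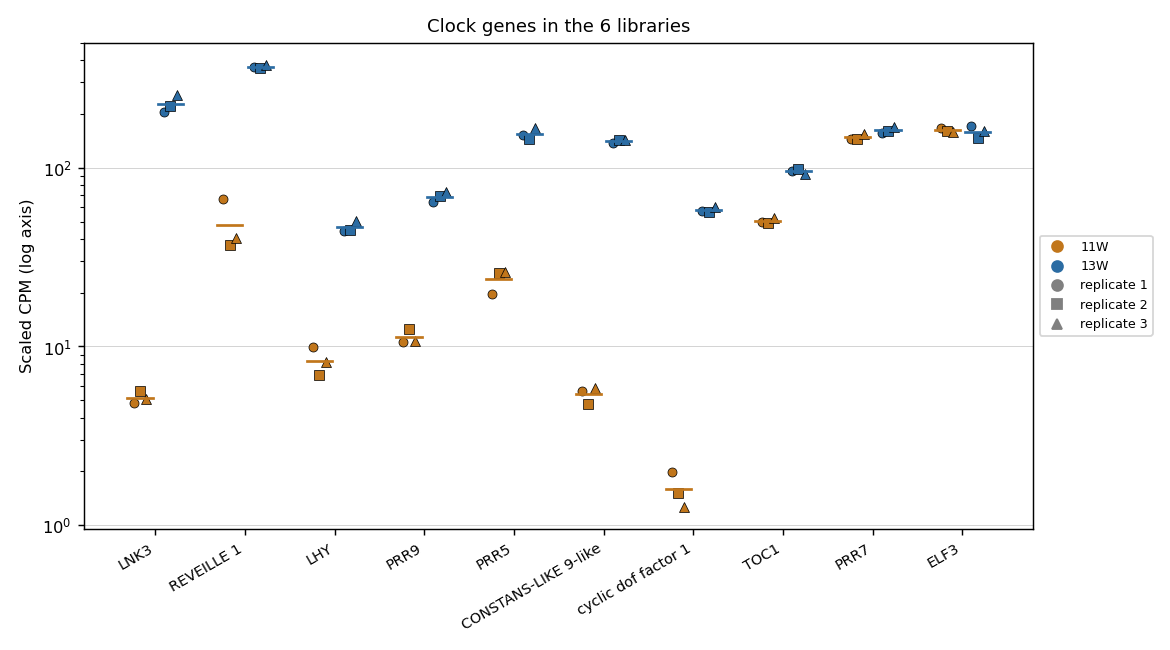
Scaled CPM on a log axis of 10 clock genes in the 3 libraries of 11W (orange) and of 13W (blue); bars are means and marker shapes the replicates. LNK3 (Jr3SG00066200) moves from 5.18 to 228 CPM on average and every 13W library of the first 8 genes lies above all 11W libraries, whereas PRR7 and ELF3 stay between 144 and 171 CPM.

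Most fermentation genes fell. Pyruvate decarboxylase and alcohol dehydrogenase turn pyruvate into ethanol and are the classic response of plant tissue to low oxygen, which plant cysteine oxidases help to sense. This list was put together after the values were seen, so its counts are a description: 13 of 22 fell, 1 rose and the median log2 change was -0.52, against 35% and 32.1% of all genes. Pyruvate decarboxylase 1 (Jr5SG00055200, chromosome 5S, 5248565 to 5252887) stood at 1575, 1608 and 1651 CPM in the 11W libraries against 429.8, 430.3 and 400.0 CPM in those of 13W. A thiamine pyrophosphate enzyme that Swiss-Prot names pyruvate decarboxylase 4 (Jr5SG00170900, chromosome 5S, 30551118 to 30553673) had 2263, 1977 and 2038 CPM in the 11W libraries against 126, 133 and 112 CPM in those of 13W. The pyruvate decarboxylase-type gene Jr5DG00200000 had 1310, 1391 and 1430 CPM in the 11W libraries against 45.2, 38.6 and 33.6 CPM in those of 13W. In each of the 3 genes the libraries of a stage agreed closely and the stages were far apart, with log2 changes of -1.94, -4.08 ± 0.126 (SE, adjusted p = 1.81e-17) and -5.14 ± 0.112 (SE, adjusted p = 1.46e-20).

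Neighbouring alcohol dehydrogenase genes on chromosome 8D differed from each other. Jr8DG00019400 had 1826, 2000 and 1977 CPM in the 11W libraries against 715, 668 and 677 CPM in those of 13W, a log2 change of -1.49 ± 0.0743 (SE, adjusted p = 3.44e-14). Jr8DG00019600, with more reads, had 3970, 4446 and 4470 CPM in the 11W libraries against 4061, 3980 and 3964 CPM in those of 13W; its stages overlapped and it did not pass (adjusted p = 0.348). Reads of such neighbouring copies may have been split by the counting in ways that cannot be seen here. L-lactate dehydrogenase B (Jr6SG00111200), of the other fermentation branch, fell from 28.8 ± 1.16 to 2.83 ± 0.567 CPM. Of the plant cysteine oxidases, Jr5DG00158900 fell from 234 ± 24.9 to 52.1 ± 4.59 CPM and Jr2SG00018300 from 98.2 ± 7.95 to 49.5 ± 4.8 CPM. A nonsymbiotic hemoglobin (Jr3DG00053400) was at 209.6 ± 33.8 CPM in 11W against 251 ± 19.3 CPM in 13W (adjusted p = 0.293). Probable prolyl 4-hydroxylase 3 (Jr4DG00150100), of a family that needs oxygen as a substrate and was singled out after the values were seen, had 1023, 1270 and 1355 CPM in the 11W libraries against 167, 175 and 169 CPM in those of 13W, and its stages did not overlap (log2 change -2.84).

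Some of the largest falls in CPM were of enzymes of sucrose breakdown and glycolysis, although in the list of sucrose and starch enzymes 38 of 117 rose, 29 fell and the median log2 change was 0.08 (0.07 bounded). Sucrose synthase, which splits sucrose with less energy than invertase, is represented among them by 2 genes: Jr4DG00122100 had 3066, 3436 and 3444 CPM in the 11W libraries against 1643, 1585 and 1593 CPM in those of 13W, and Jr2DG00195600 had 1731, 1744 and 1839 CPM in the 11W libraries against 446, 547 and 371 CPM in those of 13W. Neither overlapped between stages, and the log2 changes were -1.04 ± 0.085 (SE, adjusted p = 1.96e-10) and -1.96 ± 0.111 (SE, adjusted p = 3.97e-13). A glyceraldehyde 3-phosphate dehydrogenase of glycolysis (Jr3SG00113600) fell from 4548 ± 142 to 2669 ± 88.7 CPM. The fermentation genes summed to 3566 ± 73.4 CPM in 9W libraries, 12123 ± 364 CPM in 11W, 5817 ± 98.5 CPM in 13W and 10232 ± 484 CPM in 15W, so 11W and 15W were high and 9W and 13W low. In 11W replicate 1 the sum, 11714 CPM, was the lowest of the 11W libraries.

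Most small heat shock proteins fell steeply. They are chaperones that hold unfolded proteins and are usually low without heat or developmental cues. Again the list was drawn up after the values were seen: 20 of 29 fell, 4 rose and the median log2 change was -3.73. Its summed level was 2318, 1978 and 1466 CPM in 11W against 248, 283 and 233 CPM in 13W, so the stages were far apart. Small heat shock protein 17.3 (Jr8DG00091200, chromosome 8D, 15504227 to 15506814) had 522, 455 and 349.6 CPM in the 11W libraries against 20.1, 18.4 and 22.5 CPM in those of 13W, a log2 change of -4.44 ± 0.277 (SE, adjusted p = 9.45e-10). The class I gene Jr7DG00080500 (chromosome 7D, 7809224 to 7809700) had 440.5, 416 and 343 CPM in the 11W libraries against 26.2, 24.6 and 32.1 CPM in those of 13W, a log2 change of -3.85 ± 0.192 (SE, adjusted p = 1.84e-11). Both genes were lowest in replicate 3 among the 11W libraries, and that order held in the list as a whole.

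A gene cluster on chromosome 7D holds several of these genes. Jr7DG00079600 to Jr7DG00081100 on chromosome 7D hold class I genes, of which the first was at 10.8, 6.56 and 3.67 CPM at 11W and at 0 reads at 13W, at least 33.4-fold lower against a floor of 3 reads per library, and Jr7DG00079800 was 348-fold (95% counting interval 62 to 13767) lower, with a fitted log2 change of -8.0, or -9.91 without 13W replicate 2. Jr7DG00079900 fell by 8.61 on the log2 scale, or by 9.28 without 13W replicate 3. Neighbouring genes with like names may share reads, so the split among them is uncertain; how alike their sequences are was not examined. A few members of the family rose: the class I genes Jr7SG00072500 and Jr7SG00072600, with 8.33, 9.25 and 7.13 CPM in the 11W libraries against 26.8, 30.9 and 27.4 CPM in those of 13W in the former, and class V and VI genes (Jr5DG00082300 and Jr6DG00183200) by 0.72 and 1.14 on the log2 scale. The log2 change of Jr7SG00072600, 2.82, was 3.42 without 11W replicate 2. Among larger chaperones, of 90 kDa proteins 10 of 12 fell and 0 rose, and their sum went from 1669 ± 266 to 865 ± 28.3 CPM; of 70 kDa proteins 14 of 18 fell and 3 rose. DnaJ proteins were balanced (28 of 91 rose and 27 fell), and the called member with the most reads (Jr7DG00042200) rose from 4042 ± 434 to 5428 ± 322 CPM. In the list of all chaperones together 93 of 210 fell, 56 rose and the median log2 change was -0.24.

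**Figure D3:**
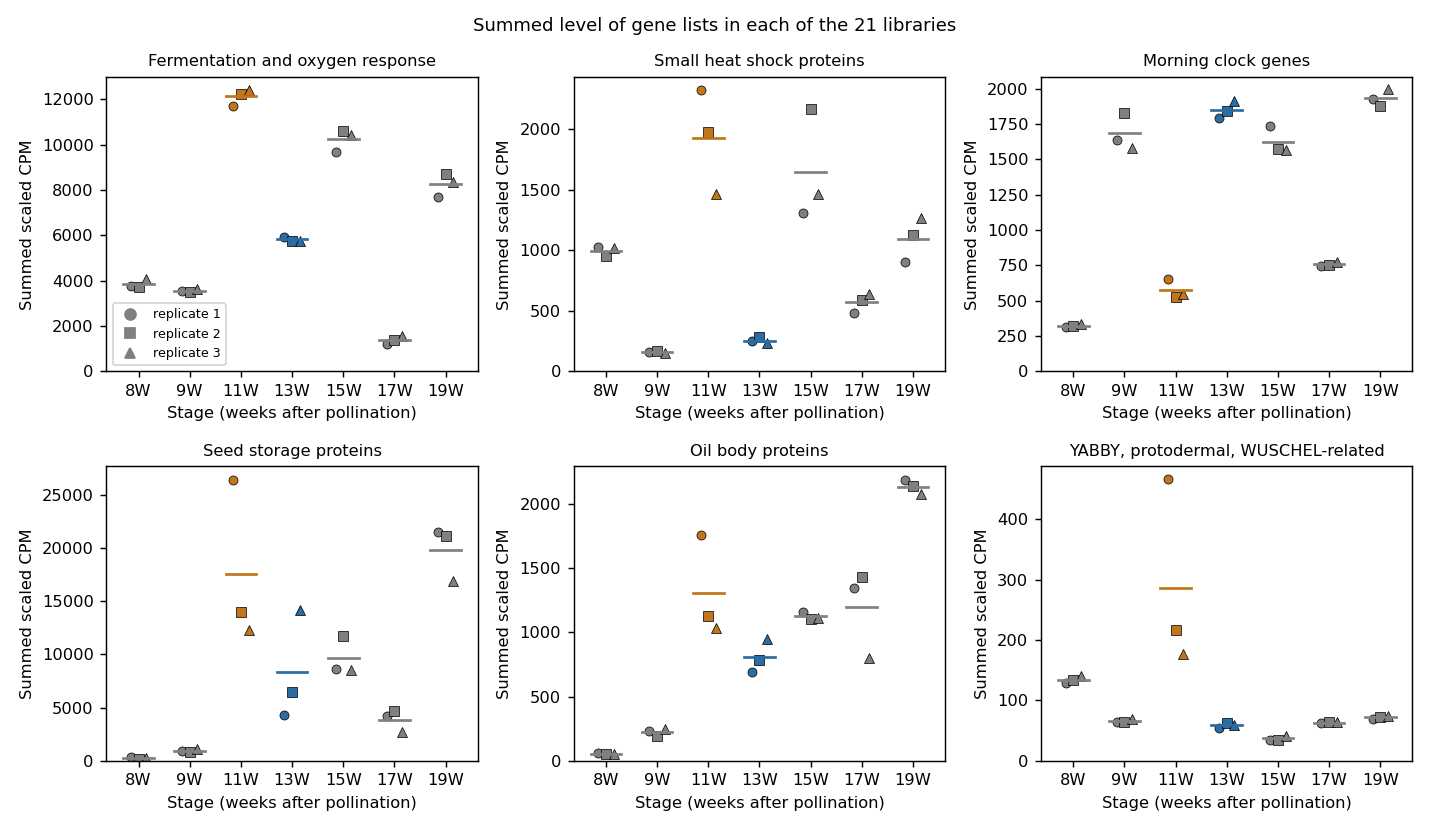
Summed scaled CPM of 6 gene lists in each of the 21 libraries by stage (11W orange, 13W blue, other stages grey; bars are means, marker shapes the replicates). Fermentation genes and small heat shock proteins fall from 11W to 13W and are higher again at 15W, morning clock genes do the reverse at 11W and 13W, and in the 3 lower panels 11W replicate 1 lies highest of the 11W libraries.

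Among regulators, several transcripts of low or middling level at 11W were abundant at 13W. IAA29, an Aux/IAA repressor of auxin responses (Jr4DG00217000, chromosome 4D, 34723890 to 34727123), had 95.2, 89.5 and 169.6 CPM in the 11W libraries against 2031, 2033 and 2144 CPM in those of 13W. Replicate 3 was the highest at 11W, yet the stages were 17.5-fold apart, a log2 change of 4.13 ± 0.181 (SE, adjusted p = 3.97e-13). A homeobox-leucine zipper gene named ATHB-12-like, of the class that responds to drought and abscisic acid (Jr3SG00047400, chromosome 3S, 6344168 to 6346225), had 10.1, 12.6 and 18 CPM in the 11W libraries against 658, 614 and 641 CPM in those of 13W, a log2 change of 5.55 ± 0.192 (SE, adjusted p = 4.65e-14). Both genes named NAC 21 that are given here rose: Jr6SG00122900 had 144, 176 and 219.5 CPM in the 11W libraries against 1465, 1381 and 1491 CPM in those of 13W, and Jr6DG00175900 had 336, 439 and 453 CPM in the 11W libraries against 1266, 1302 and 1315 CPM in those of 13W. No 13W library of these genes overlapped with 11W. BEL1-like homeodomain 1 (Jr5SG00016500) rose from 237 ± 43.9 to 1076 ± 42.7 CPM, a bHLH gene (Jr1DG00245400) from 32.5 ± 7.34 to 375 ± 9.4 CPM, and AGL9, a SEPALLATA-type MADS-box gene (Jr3DG00096400), from 66.7 ± 10.7 to 293 ± 9.66 CPM.

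By family, the transcription factors leaned differently. Of NAC factors 37 of 88 rose, 22 fell and the median log2 change was 0.33, of homeobox factors 47 of 109 rose, 31 fell and the median log2 change was 0.16 and of MADS-box factors 14 of 35 rose, 5 fell and the median log2 change was 0.32. The count of MADS-box falls varied with the libraries used and was 3 without any 1 of 11W replicate 2, 11W replicate 3, 13W replicate 1 or 13W replicate 3. Of WRKY factors, many of them stress regulators, 26 of 59 fell and 18 rose, against 35% and 32.1% of all genes. Their median log2 change, -0.05, was close to that of all genes, -0.04. WRKY33 (Jr7DG00064100) rose from 221 ± 29.9 to 540.2 ± 109.5 CPM. Of AP2/ERF factors 29 of 69 fell, 22 rose and the median log2 change was -0.33. An AP2 domain gene (Jr1DG00231400) had 144, 66.9 and 55 CPM in the 11W libraries against 0.411, 0.988 and 6.62 CPM in those of 13W, highest at 13W in replicate 3, and its log2 change of -5.05 was -6.97 without that library. Of MYB factors 39 of 147 rose, 38 fell and the median log2 change was -0.16 (-0.02 bounded). Of bHLH factors 40 of 114 rose, 42 fell and the median log2 change was 0.06 (0.03 bounded), close to the shares of all genes. The list of AP2/ERF names also took in an AP2-associated protein kinase.

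**Figure D4:**
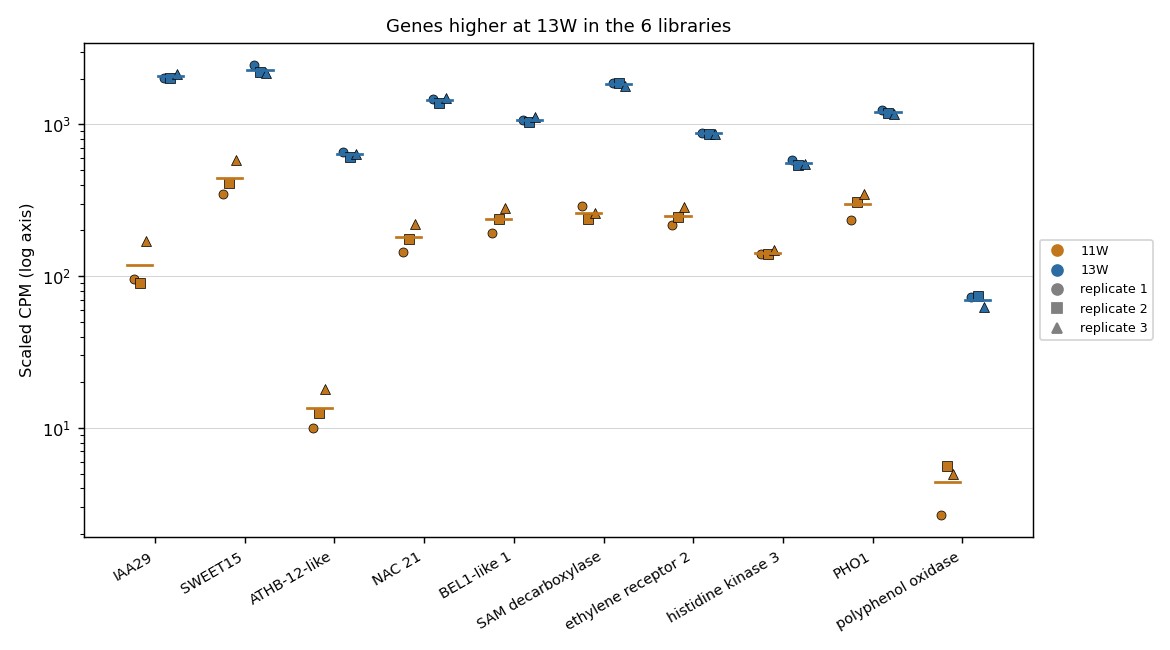
Scaled CPM on a log axis of 10 genes that rose, in the 3 libraries of 11W (orange) and of 13W (blue); bars are means and marker shapes the replicates. In each gene all 13W libraries lie above all 11W libraries, by 17.5-fold on the fitted scale in IAA29 and 5.14-fold in SWEET15.

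Auxin, which in seed coats is known to drive growth after fertilization, was represented by many genes. In the whole list 54 of 127 rose, 48 fell and the median log2 change was 0.06. Split by family after the values were seen, 17 of 31 rose and 8 fell among the auxin response factors, which bind auxin-regulated promoters, and their summed level went from 1573 ± 17.6 to 2460 ± 38.4 CPM. Among the Aux/IAA repressors 13 of 24 rose and 7 fell, and among SAUR genes, of which many are rapidly induced by auxin, 3 of 11 rose and 5 fell. The summed level went from 1041 ± 126.5 to 3757 ± 117.7 CPM for Aux/IAA genes. For SAUR genes it went from 83.4 ± 2.04 to 192.6 ± 13.75 CPM, although more of them fell than rose. Auxin response factor 7 (Jr2DG00197100) rose from 125 ± 13.8 to 363 ± 14.4 CPM and ARF5, the MONOPTEROS gene of Arabidopsis (Jr4DG00156000), from 74 ± 9.56 to 161 ± 9.98 CPM. An IAA-amino acid hydrolase that frees stored auxin (Jr5SG00012900) rose from 335 ± 46.8 to 658 ± 30.3 CPM. These 3 genes were picked after their values were seen. A SAUR gene (Jr3DG00065100) fell from 10.2 ± 3.12 to 0.116 ± 0.145 CPM, or by 7.89 on the log2 scale without 13W replicate 3 in place of 6.36.

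Ethylene receptors rose throughout. Of the receptor family 5 of 5 rose and 0 fell, and its sum went from 439 ± 35.7 to 1392 ± 19.8 CPM. Ethylene receptor 2 (Jr1SG00119600) had 219, 247 and 284 CPM in the 11W libraries against 883, 862 and 868 CPM in those of 13W, a log2 change of 1.80 ± 0.081 (SE, adjusted p = 6.48e-15); receptors repress the response until ethylene binds them. Of ACC synthases and oxidases, which make ethylene, 11 of 24 rose and 5 fell. An ACC oxidase (Jr2SG00187000) had 337, 511 and 499 CPM in the 11W libraries against 1019, 1065 and 1005 CPM in those of 13W, whereas another (Jr2SG00153500) had 239, 138 and 122 CPM in the 11W libraries against 3.5, 6.78 and 5.79 CPM in those of 13W. Neither overlapped between stages, and their log2 changes were 1.20 and -4.96. Of the jasmonate side, 7 of 11 fell and 1 rose among the TIFY and JAZ repressors, which jasmonate itself induces. Lipoxygenase 3 (Jr1DG00230200) had 268, 281 and 362 CPM in the 11W libraries against 96.8, 60.5 and 194 CPM in those of 13W, and JAZ2 (Jr1DG00229000) 12.7, 28.8 and 27.9 CPM in the 11W libraries against 3.56, 3.11 and 10.8 CPM in those of 13W. Both were highest at 13W in replicate 3; the log2 change of JAZ2, -1.99, was -2.79 without it, and that of the lipoxygenase, -1.37, was -2.03 without it and 11W replicate 1. The receptor genes, Jr1DG00230200 and Jr1DG00229000 were picked after their values were seen. Over ethylene and jasmonate genes together 24 of 65 rose, 19 fell and the median log2 change was 0.01.

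The other hormone lists held both directions. Of abscisic acid genes 27 of 56 rose, 16 fell and the median log2 change was 0.32. Abscisic acid 8'-hydroxylase 1, which breaks the hormone down (Jr6DG00090000), had 572, 856 and 857 CPM in the 11W libraries against 275, 229 and 300.2 CPM in those of 13W, and zeaxanthin epoxidase of its synthesis (Jr1DG00017000) had 155, 117 and 113 CPM in the 11W libraries against 175, 175 and 176 CPM in those of 13W. The former fell with a log2 change of -1.51 ± 0.162 (SE, adjusted p = 1.74e-07), the latter rose with 0.45 ± 0.0857 (SE, adjusted p = 7.33e-05), and neither overlapped. Of cytokinin genes 24 of 66 rose, 19 fell and the median log2 change was 0.09 (0.03 bounded). They included histidine kinase 3, a cytokinin receptor (Jr3DG00097000), with 139.5, 139.5 and 148 CPM in the 11W libraries against 582, 539 and 547 CPM in those of 13W, and the response regulator ARR22 (Jr2SG00103800), which rose from 73.9 ± 12.5 to 324 ± 37.4 CPM. Of gibberellin genes 15 of 35 rose, 9 fell and the median log2 change was 0.26. They included ent-kaurenoic acid oxidase, a synthesis enzyme (Jr7DG00019600), and gibberellin 2-beta-dioxygenase 8-like, of a family that inactivates the hormone (Jr6DG00184800). These enzymes rose from 549.9 ± 102 to 1125 ± 50.5 CPM and from 345 ± 48.1 to 696 ± 22 CPM. The gibberellin 20-oxidase Jr2DG00109700, a late step of synthesis, had 76.9, 34.5 and 23.9 CPM in the 11W libraries against 0, 0.212 and 0 CPM in those of 13W, where 3 reads were counted in all. It was 642-fold (95% counting interval 219 to 3117) lower, and its 11W level was highest in replicate 1; the fitted log2 change of -9.17 was -8.58 without that library and -12.39 without 13W replicate 2.

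Several sugar transporters of the SWEET family rose. SWEET15, a sugar efflux carrier that in Arabidopsis seeds helps to move sucrose from the seed coat to the embryo (Jr3DG00093800, chromosome 3D, 8535190 to 8537847), had 348, 408 and 582 CPM in the 11W libraries against 2457, 2231 and 2189 CPM in those of 13W. All 13W libraries lay far above 11W, a log2 change of 2.36 ± 0.131 (SE, adjusted p = 7.98e-13). The SWEET10-like gene Jr6DG00002700 had 104, 107 and 128 CPM in the 11W libraries against 484, 388 and 471 CPM in those of 13W. Its relative Jr6SG00012100 had 9.29, 9.71 and 9.4 CPM in the 11W libraries against 143, 81.5 and 129 CPM in those of 13W, and neither overlapped. Over the SWEET family 6 of 13 rose and 4 fell, and its sum went from 1042 ± 93.6 to 3359 ± 205 CPM. SWEET7 (Jr6DG00123700) went the other way, with 265, 96.2 and 96.4 CPM in the 11W libraries against 46.2, 46.5 and 110.2 CPM in those of 13W; it was highest in 11W replicate 1 and 13W replicate 3, and its fall lost its call without 11W replicate 1 (adjusted p = 0.2), 13W replicate 1 (adjusted p = 0.0844) or 13W replicate 2 (adjusted p = 0.0851). SWEET7 was picked after its values were seen. Of all sugar transporters 20 of 62 rose, 22 fell and the median log2 change was -0.01 (0.02 bounded).

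Some phosphate carriers rose. PHO1, which exports phosphate from cells and serves its transfer to the embryo in Arabidopsis seed coats (Jr1SG00116400, chromosome 1S, 22001714 to 22012696), had 234, 310.2 and 348 CPM in the 11W libraries against 1252, 1191 and 1171 CPM in those of 13W, a log2 change of 2.02 ± 0.102 (SE, adjusted p = 4.83e-14). Inorganic phosphate transporter 1-4, an uptake carrier (Jr2DG00249300), had 0, 0.0656 and 0 CPM in the 11W libraries against 13.3, 10.4 and 14.8 CPM in those of 13W. With 1 read over all 11W libraries it was 576-fold (95% counting interval 103 to 22807) higher, with a fitted log2 change of 8.71, or 10.58 without 11W replicate 2. A WAT1-related transporter (Jr4SG00151300), of a family that includes amino acid exporters, rose from 1603 ± 298 to 2498 ± 80.4 CPM. Over amino acid and mineral transporters 84 of 226 rose, 71 fell and the median log2 change was 0.09 (0.06 bounded). Of aquaporins 5 of 21 rose, 7 fell and the median log2 change was -0.23. The aquaporin NIP5-1 (Jr6DG00114100) rose from 6.45 ± 1.47 to 29.8 ± 1.43 CPM. Beside the sucrose synthases, a cell wall invertase, which splits sucrose outside the cell (Jr1DG00235500), fell from 91.1 ± 14.5 to 13.9 ± 2.98 CPM.

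Most cellulose and secondary wall genes fell. Cellulose is spun by cellulose synthases at the plasma membrane, and xylan, fasciclin-like and COBRA proteins help to build thickened walls. In the list of cellulose and secondary wall genes 73 of 106 fell, 7 rose and the median log2 change was -1.04 (-1.03 bounded), against 35% and 32.1% of all genes. Cellulose synthase 2 (Jr2DG00117600, chromosome 2D, 12588435 to 12595908) had 658, 639.7 and 740.0 CPM in the 11W libraries against 186, 185 and 200.5 CPM in those of 13W, and the 13W libraries lay well below those of 11W, a log2 change of -1.83 ± 0.0818 (SE, adjusted p = 5.9e-15). By family, 21 of 31 fell and 1 rose among cellulose synthases and their relatives, 13 of 15 fell and 0 rose among fasciclin-like proteins and 23 of 35 fell and 3 rose among trichome birefringence-like proteins, which acetylate wall polymers. The cellulose synthase sum went from 2183 ± 198 to 1001 ± 20.8 CPM. Without 11W replicate 1, 71 fell and 7 rose.

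Wall-loosening and pectin genes leaned the same way. Of expansins, xyloglucan enzymes and endoglucanases 53 of 96 fell, 15 rose and the median log2 change was -0.93. Without 11W replicate 1, 56 fell and 14 rose. Expansin-A1, a protein that lets walls extend (Jr6DG00045100), was picked after its values were seen and had 633, 296 and 279 CPM in the 11W libraries against 14.4, 14.8 and 14.2 CPM in those of 13W. Its 11W level was highest in replicate 1, and its stages were 27.9-fold apart. Of expansins 13 of 21 fell and 3 rose, and of xyloglucan enzymes 20 of 27 fell and 4 rose, but the xyloglucan gene with the most reads among those called (Jr1DG00129000) rose from 1463 ± 151 to 2158 ± 286 CPM. The beta-galactosidase Jr2DG00209100, of a family that trims wall galactans, rose, with 632, 815 and 964 CPM in the 11W libraries against 2978, 2796 and 2889 CPM in those of 13W. It overlaps another gene on the opposite strand, and whether counting used strand is not given. Of pectin enzymes 49 of 92 fell, 24 rose and the median log2 change was -0.64 (-0.61 bounded). Galacturonosyltransferases, which make pectin, fell in 15 of 20 members, Jr7SG00041400 from 378 ± 20.6 to 140.1 ± 21.2 CPM, whereas pectinesterases went both ways (8 of 17 rose and 8 fell). A proline-rich protein (Jr2SG00069800, chromosome 2S, 6334992 to 6336337) also fell, with 4469, 2037 and 1890 CPM in the 11W libraries against 68.1, 65.4 and 93.1 CPM in those of 13W and a log2 change of -5.21 ± 0.354 (SE, adjusted p = 3.15e-09); 11W replicate 1 was more than 2-fold above the other 11W libraries.

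**Figure D5:**
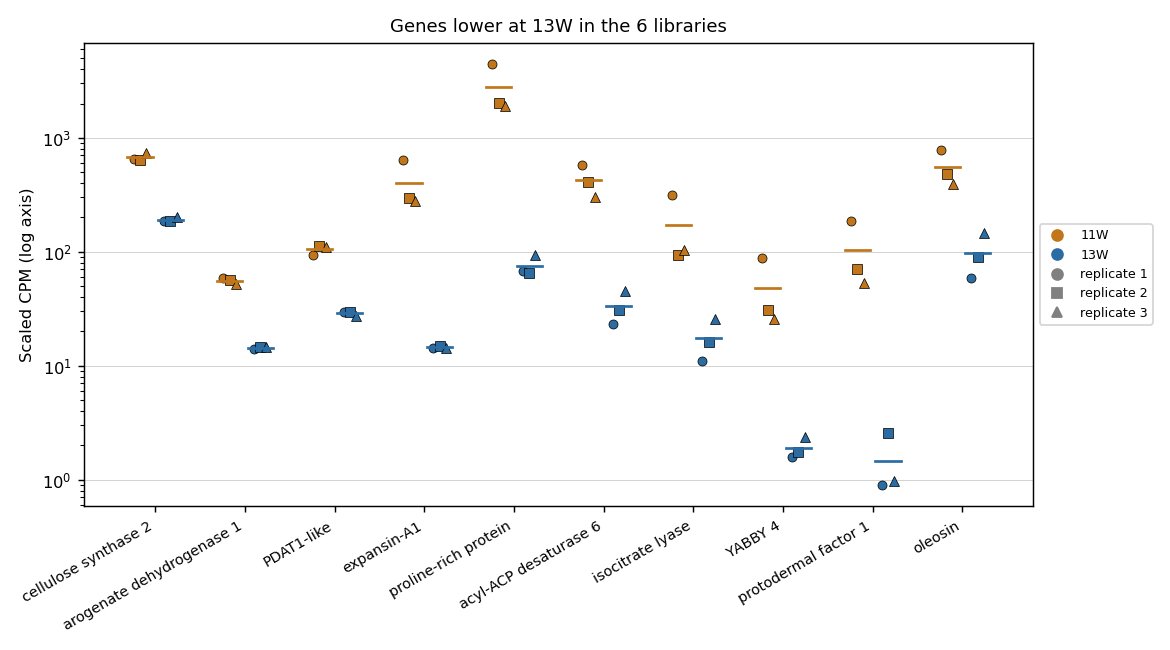
Scaled CPM on a log axis of 10 genes that fell, in the 3 libraries of 11W (orange) and of 13W (blue); bars are means and marker shapes the replicates. All 13W libraries lie below all 11W libraries in each gene. The 11W libraries of the first 3 genes lie close together, while replicate 1 is highest in the other 7.

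Most fatty acid genes fell. Plastids build fatty acids on acyl carrier protein, and desaturases then add double bonds, steps that supply membranes, surface lipids and seed oil alike. Of these genes 54 of 81 fell, 10 rose and the median log2 change was -0.75. Without 11W replicate 1, 49 fell and 8 rose. The acyl carrier proteins and the synthases and reductases that work on them went from a sum of 1876 ± 481 to 995 ± 51.1 CPM, and 22 of 30 fell and 3 rose. Acyl carrier protein 1 (Jr1SG00100400) had 372, 254 and 208 CPM in the 11W libraries against 87.2, 109.7 and 97 CPM in those of 13W, and 3-oxoacyl-[acyl-carrier-protein] synthase I (Jr5DG00116000) had 228, 140.4 and 110.3 CPM in the 11W libraries against 34.5, 31.1 and 33.2 CPM in those of 13W. In both, replicate 1 was the highest of 11W and no library of 13W reached the lowest of 11W. Desaturases fell in 17 of 25 members: an acyl-[acyl-carrier-protein] desaturase (Jr8SG00015800) had 574, 408 and 302 CPM in the 11W libraries against 23.4, 30.8 and 45.2 CPM in those of 13W, and a microsomal omega-3 desaturase (Jr7DG00071700), which makes linolenic acid, fell from 392 ± 29.5 to 216 ± 30.1 CPM. PDAT1-like, which adds the last acyl chain of triacylglycerol (Jr1SG00137500), had 94.4, 112 and 109.5 CPM in the 11W libraries against 29.8, 29.6 and 27.4 CPM in those of 13W, and here 11W replicate 1 was the lowest of its stage (log2 change -1.87). The carrier protein, the synthase, Jr8SG00015800 and PDAT1-like were picked after their values were seen.

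Surface lipid genes moved in both directions. Of cutin, suberin and wax enzymes 26 of 61 fell, 17 rose and the median log2 change was -0.24. Long chain acyl-CoA synthetase 2-like, which activates acids for cutin and wax (Jr3SG00147100), rose from 350.3 ± 43.6 to 772 ± 19.5 CPM. CYP86A8-like, an omega-hydroxylase of cutin acids (Jr1DG00063000), had 72.7, 27.5 and 22 CPM in the 11W libraries against 1.85, 1.06 and 2.16 CPM in those of 13W, and its log2 change of -4.58 was -3.90 without 11W replicate 1. A GDSL lipase (Jr1DG00225300) rose from 1035 ± 147 to 2526 ± 40.1 CPM, while in the GDSL list 22 of 60 fell, 16 rose and the median log2 change was -0.36 (-0.29 bounded). Of lipid-transfer proteins 13 of 36 fell, 7 rose and the median log2 change was -0.31, and a nonspecific gene among them (Jr5DG00207700) fell from 327 ± 27.8 to 152 ± 13 CPM.

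Genes of phenolic metabolism changed in both directions. Of phenylpropanoid enzymes 21 of 74 rose, 21 fell and the median log2 change was -0.06 and of flavonoid enzymes 15 of 48 rose, 16 fell and the median log2 change was -0.17 (-0.14 bounded), against 32.1% and 35% of all genes. Phenylalanine ammonia-lyase 2, the entry step (Jr5DG00165400), had 24.7, 31.6 and 28.3 CPM in the 11W libraries against 46.7, 49.6 and 51.4 CPM in those of 13W, and dihydroflavonol 4-reductase (Jr8DG00061900) had 52.7, 60.9 and 70.7 CPM in the 11W libraries against 125, 126 and 121 CPM in those of 13W. Both were higher in all 13W libraries, by 0.80 and 1.02 on the log2 scale. Anthocyanidin synthase (Jr6DG00150000) had 85.1, 109 and 108 CPM in the 11W libraries against 40.6, 41.4 and 64 CPM in those of 13W, lower in all 13W libraries with replicate 3 the highest of them. Chalcone synthase Jr1DG00116500, the entry to flavonoids, had 88.3, 111 and 110.3 CPM in the 11W libraries against 78.2, 87.7 and 129 CPM in those of 13W and did not pass (adjusted p = 0.785). A leucoanthocyanidin reductase-like gene (Jr8SG00081600) fell from 21.8 ± 3.41 to 0.646 ± 0.437 CPM. These enzymes, except the last, were picked after their values were seen.

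Shikimate enzymes, which make the aromatic precursors, leaned to falls: 26 of 52 fell, 13 rose and the median log2 change was -0.40 (-0.38 bounded). Arogenate dehydratase (Jr7DG00102600), which leads to phenylalanine, had 212, 224 and 239 CPM in the 11W libraries against 109.9, 110.5 and 117 CPM in those of 13W, and arogenate dehydrogenase 1 (Jr2SG00179300), which leads to tyrosine, had 58.8, 56.4 and 51.9 CPM in the 11W libraries against 14.1, 14.5 and 14.6 CPM in those of 13W. The 11W and 13W libraries were apart and tight in both, with log2 changes of -1.0 ± 0.0679 (SE, adjusted p = 9.34e-12) and -1.95 ± 0.0911 (SE, adjusted p = 1.26e-14); the latter overlaps a gene on the opposite strand. Of the shikimate genes that rose, putative chorismate mutase (Jr2DG00018700) went from 258 ± 45.1 to 323 ± 2.79 CPM. Among phenol-oxidizing enzymes 28 of 65 fell, 8 rose and the median log2 change was -0.81 (-0.37 bounded). Laccases fell in 10 of 18 members and rose in 2, from a low sum (41.3 ± 2.23 to 20.4 ± 3.44 CPM). Class III peroxidases fell in 18 of 45 members and rose in 5, against 35% and 32.1% of all genes. Peroxidase 63 (Jr2DG00031100) fell from 226 ± 44.9 to 64.6 ± 15.8 CPM, and peroxidase 31-like (Jr2SG00022400) from 47 ± 8.33 to 2.46 ± 0.877 CPM. Of 2 tested genes of polyphenol oxidase, the enzyme of tissue browning, 1 rose (Jr5DG00051800, chromosome 5D, 5048966 to 5050798) and 0 fell. The gene that rose had 2.69, 5.58 and 5 CPM in the 11W libraries against 72.9, 74.1 and 62.7 CPM in those of 13W, a log2 change of 3.98 ± 0.184 (SE, adjusted p = 1.08e-14). Its mean was 8.88 ± 1.51 CPM in 9W libraries and 3.12 ± 0.606 CPM in those of 15W. All 3 libraries of 13W shared the high level; the gene was picked after its values were seen.

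Most genes of cell division fell. Of DNA replication, histone and mitosis genes 143 of 237 fell, 32 rose and the median log2 change was -0.75. Without cyclin-dependent kinases, which the name match also took in, 136 of 210 fell and 19 rose. A-, B- and D-type cyclins fell in 18 of 24 members, replication genes in 25 of 37 and kinesins in 55 of 82. Of core histones 9 of 19 fell and 3 rose, and a histone H1 gene (Jr4DG00061300) rose from 556 ± 62.6 to 1098 ± 24.2 CPM. Without 11W replicate 1, 134 fell and 38 rose. The summed level of the list was 9928, 9016 and 9309 CPM in 11W against 9008, 8716 and 9144 CPM in 13W. The sums of the stages overlapped.

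Most ribosomal proteins fell, by small steps: 200 of 316 fell, 26 rose and the median log2 change was -0.37, with 27 falls of at least 2-fold. Their sum was 34293, 27697 and 26662 CPM in 11W against 22729, 23851 and 23856 CPM in 13W, highest in 11W replicate 1. Without 11W replicate 1, 185 fell and 29 rose, and with library sizes alone as scaling 217 fell and 16 rose. Rises numbered 17 without 11W replicate 2 and 16 without 11W replicate 3. Ribosomal protein L5 (Jr1DG00185800) had 559, 429.9 and 384 CPM in the 11W libraries against 332, 353 and 328 CPM in those of 13W. Cytosolic 40S and 60S proteins fell in 135 of 208 members and the 30S and 50S proteins of organelles in 38 of 73. Proteasome subunits, which degrade proteins, leaned the other way: 44 of 83 rose, 16 fell and the median log2 change was 0.19. Of the rises 1 reached 2-fold, and with library sizes alone 35 rose and 18 fell. Subunit beta type-7-B (Jr2SG00030000) had 194, 199 and 202 CPM in the 11W libraries against 283, 283 and 291 CPM in those of 13W, with no overlap and a log2 change of 0.53 ± 0.0548 (SE, adjusted p = 1.15e-08).

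Storage globulins and oil body proteins are made in embryos and kernels. Seed storage genes summed to 26372, 14036 and 12297 CPM in 11W against 4262, 6486 and 14180 CPM in 13W, so 13W replicate 3 lay within the range of 11W. In the list 5 of 13 fell, 1 rose and the median log2 change was -0.60, against 35% and 32.1% of all genes. The name match also took in a chloroplast plastoglobulin (Jr6SG00077100). It took in 2 genes named for the whole lipid-transfer and 2S albumin superfamily as well (Jr2DG00094400 and Jr7DG00176500), and these genes are among the falls. The other falls were a seed storage protein (Jr2DG00249800, log2 change -1.12) and the vicilin-like gene that follows. The vicilin-like gene Jr1DG00211500 had 7182, 4108 and 3687 CPM in the 11W libraries against 1736, 2388 and 2681 CPM in those of 13W; its fall lost its call without 11W replicate 1 (adjusted p = 0.0695) or 13W replicate 1 (adjusted p = 0.0513). Legumin B (Jr1DG00199500) had 8696, 4695 and 3946 CPM in the 11W libraries against 899, 1665 and 5108 CPM in those of 13W and did not pass (adjusted p = 0.0748), but passed without 13W replicate 3 (adjusted p = 0.00174). Over the list, falls numbered 3 without 11W replicate 1 or 13W replicate 1 and 9 without 13W replicate 3, and the 1 rise was lost without 11W replicate 1, 13W replicate 1 or 13W replicate 3. Oil body genes summed to 1756, 1130 and 1034 CPM in 11W against 692, 783 and 951 CPM in 13W, but 2 of 8 fell, 1 rose and the median log2 change was -0.10, against the same shares of all genes. Rises numbered 2 without 11W replicate 1. An oleosin, a coat protein of oil bodies (Jr2DG00039300), had 778, 478 and 394 CPM in the 11W libraries against 58.7, 89.4 and 147 CPM in those of 13W. It accounts for most of the lower sum. Its stages did not overlap, with a log2 change of -2.49 ± 0.351 (SE, adjusted p = 1.46e-05).

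Genes of organ surfaces and organ sides were mostly higher at 11W. YABBY factors mark the lower side of lateral organs, protodermal factors the epidermis, and WUSCHEL-related factors early organ and embryo domains. This list too was assembled after the values were seen: 11 of 16 fell, 2 rose and the median log2 change was -3.01. Protodermal factor 1 (Jr2DG00179800) had 188, 70.9 and 52.9 CPM in the 11W libraries against 0.891, 2.54 and 0.976 CPM in those of 13W, and YABBY 4 (Jr6DG00155700) had 87.5, 30.9 and 25.8 CPM in the 11W libraries against 1.58, 1.76 and 2.37 CPM in those of 13W. Both were over 2-fold higher in replicate 1 than in the other 11W libraries and low at 13W; without that replicate the log2 changes of -6.14 and -4.65 were -5.43 and -3.92, and that of protodermal factor 1 was -6.78 without 13W replicate 2. Isocitrate lyase, of the glyoxylate cycle that turns stored fat into sugar (Jr2DG00146100), had 315, 94.4 and 103 CPM in the 11W libraries against 10.9, 16.2 and 25.8 CPM in those of 13W, with a log2 change of -3.27, or -2.52 without 11W replicate 1. Malate synthase of the same cycle (Jr6DG00011000) had 123, 37.1 and 38.8 CPM in the 11W libraries against 32.8, 32.4 and 119.6 CPM in those of 13W and did not pass (adjusted p = 0.864). Both cycle genes were picked after their values were seen. How far embryo or other tissue in the samples bears on these falls was not tested. Of late embryogenesis and dehydrin genes 12 of 38 rose, 11 fell and the median log2 change was 0.04, and dehydrin 2 (Jr4SG00068600) rose from 528 ± 75 to 1024 ± 191 CPM.

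The genes with the largest folds not yet described were of mixed kinds. Among rises, CYP82A3, a cytochrome P450 (Jr8DG00067100), had 12.2, 9.91 and 18.9 CPM in the 11W libraries against 625, 453 and 517 CPM in those of 13W; a probable mannitol dehydrogenase (Jr4SG00142300) 2.48, 2.89 and 4.53 CPM in the 11W libraries against 123, 152 and 118 CPM in those of 13W; and UDP-glycosyltransferase 74G1 (Jr7DG00054100) 1.65, 3.35 and 2.4 CPM in the 11W libraries against 88.7, 109 and 66.1 CPM in those of 13W. In each of the 3 genes the stages were far apart. A tropinone reductase homolog (Jr7DG00082700) rose from 0.559 ± 0.0523 to 30.02 ± 0.579 CPM, the WAT1-related gene Jr5DG00047400 from 1.25 ± 0.171 to 39.9 ± 7.87 CPM, and CYP71A1 (Jr6DG00016300) from 0.292 ± 0.142 to 11.3 ± 3.18 CPM. CONSTANS-LIKE 2 (Jr2DG00007200) rose from 0.267 ± 0.0608 to 11.8 ± 0.895 CPM. By level, S-adenosylmethionine decarboxylase, a step to polyamines (Jr2DG00006800, chromosome 2D, 660282 to 664244), had 289, 239 and 259 CPM in the 11W libraries against 1865, 1884 and 1799 CPM in those of 13W, and a gene named metallothiol transferase FosB (Jr1DG00254100) had 583, 592 and 775 CPM in the 11W libraries against 4891, 4630 and 4833 CPM in those of 13W. Neither overlapped, and the log2 changes were 2.82 ± 0.0917 (SE, adjusted p = 1.96e-17) and 2.88 ± 0.103 (SE, adjusted p = 1.4e-16). Homocysteine S-methyltransferase 3 (Jr1DG00211000), metallothionein-like protein type 3, a metal-binding protein (Jr6SG00120300), and stem-specific protein TSJT1 (Jr6SG00122300) rose by 1.69, 0.74 and 0.59 on the log2 scale. The genes named here for CYP82A3, mannitol dehydrogenase, UDP-glycosyltransferase 74G1, tropinone reductase, CYP71A1, polyphenol oxidase, abscisic acid 8'-hydroxylase, phosphate transporter 1-4, the oxoacyl synthase, the nonspecific lipid transfer protein, the beta-galactosidase, the DnaJ gene Jr7DG00042200, EARLY FLOWERING 3, catalase isozyme 1, aluminum-activated malate transporter 2 and the spermidine hydroxycinnamoyl transferase have neighbours of the same name, so the split of reads among such copies is uncertain.

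Among falls, many of the largest were of genes highest in 11W replicate 1. A probable glutathione S-transferase (Jr2SG00047900) had 177, 52 and 53.3 CPM in the 11W libraries against 0.0685, 0 and 0.209 CPM in those of 13W, and its log2 change of -9.86 was -9.05 without that library and -11.09 without 13W replicate 3. Aluminum-activated malate transporter 2 (Jr7DG00132000) had 86.4, 10.4 and 23.9 CPM in the 11W libraries against 0.206, 0.282 and 0.0697 CPM in those of 13W (-7.69, or -6.50 without it), and a basic-leucine zipper factor (Jr6DG00167700) 45.6, 15 and 13.9 CPM in the 11W libraries against 0.137, 0.0706 and 0.0697 CPM in those of 13W (-7.94, or -7.19). In all 3 the other 11W libraries were also far above 13W. Galactinol synthase 1, of raffinose synthesis (Jr4SG00086300), was 764-fold (95% counting interval 137 to 30196) lower, a stress-response A/B barrel protein (Jr7DG00144000) 332-fold (95% counting interval 113 to 1613), and RNA-binding 38 (Jr4DG00178300) 293-fold (95% counting interval 80.8 to 2426). Their fitted log2 changes were -9.14, -8.23 and -7.97. These were -11.05 for Jr4SG00086300 and -10.68 for Jr4DG00178300 without 13W replicate 2, and -7.42 for Jr7DG00144000 and -7.18 for Jr4DG00178300 without 11W replicate 1. A NIFS-like cysteine desulfurase of the chloroplast (Jr2DG00113000) did not follow replicate 1, with 16.8, 22.5 and 21 CPM at 11W, and was 434-fold (95% counting interval 119.9 to 3591) lower, with a fitted log2 change of -8.52, or -11.22 without 13W replicate 3. Probable pectinesterase 68 (Jr6DG00083800) fell from 54.2 ± 28.3 to 0.349 ± 0.144 CPM, and a spermidine hydroxycinnamoyl transferase-like gene (Jr5SG00156300) from 18.9 ± 9.55 to 0.115 ± 0.106 CPM, with a log2 change of -7.24, or -7.92 without 13W replicate 3.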

How the data were processed

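RNA of walnut pellicle was sequenced as paired-end stranded poly(A) libraries with rRNA removal, per the labels' protocols; FastQC, HISAT2, Cufflinks and DESeq2 are named in the submitters' processing notes. The sources used here give neither the genome build and annotation nor the counting tool and its use of strand. The labels' protocol speaks of 16 libraries, and 21 are used here. The authors deposited a raw read count and an FPKM (scaled by gene length and library total) per gene and library; recomputing the deposited FPKM from counts, lengths and totals gave them to within a relative deviation of 5.27e-15, so they carry no further scaling.

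Counts were tested with edgeR 4.0.16 in R 4.3.3. Genes passing filterByExpr (minimum count 10) were scaled by TMM, 1 robust quasi-likelihood model was fitted to all 21 libraries with 1 term per stage, and 13W was contrasted with 11W, with Benjamini-Hochberg adjustment over 21707 genes and a threshold of 0.05. FPKM were used only to rank levels per length. Totals of all libraries ran from 13144713 to 17878761 counts; intervals and floors cover counting error only. On simulated counts with 50 changed genes per size, 43 changes of 2-fold and 50 of 4-fold were called, and 16 unchanged genes among 21521. Far fewer genes changed in the simulation than were called in the data. Because the adjustment depends on that share, these rates do not carry over to the comparison.

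Products come from NR for 16785 genes and Swiss-Prot for 6730. The members and 43 lists, matched by product name, were chosen with earlier results of these data known; 3 lists, the families and some genes were added after values were seen. Named genes are the 12 largest rises and falls at 10 CPM or more without overlap, the 10 largest in CPM, and per list of at least 5 tested members the called genes with most reads and the largest change, with all clock, seed coat, storage and oil body members eligible. No sequences are shown. Alternatives were other scalings, filters, DESeq2 1.42.0, the 6 libraries alone, a replicate block and leaving out each replicate. Replicate numbers shared by the stages were not taken to pair the libraries.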

Additional observations from a re-analysis of the deposited data

How the results depend on the processing

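Under every alternative run, no gene called in the main analysis was called in the opposite direction. With the 6 libraries alone, 12932 of the 14561 calls of the main analysis were kept. Leaving out each replicate in turn gave 6373 to 6652 rises and 7063 to 7677 falls. The other alternatives gave 6173 to 6954 rises and 6702 to 8284 falls. Library sizes alone moved the median log2 change of all genes to -0.121, and 42.7% of called genes then rose in place of 47.9%. Of 1290 list counts compared, 1266 stayed within 1.5 times. The 3 lists added after values were seen were not among those compared. The single rise among storage genes became 0 with DESeq2's size factors, upper-quartile factors, library sizes alone, no filter, DESeq2 and the 6 libraries alone. Ribosomal rises became 16 with library sizes alone. Phenol oxidase rises became 3 and aquaporin falls 4 with the 6 libraries alone. When single replicates were left out, storage rises ran from 0 to 1, storage falls from 3 to 9, ribosomal rises from 16 to 29, MADS-box falls from 3 to 6 and oil body rises from 1 to 2. Without both 11W replicate 1 and 13W replicate 3, an alternative chosen after seeing the data, storage rises were 0 and MADS-box falls 3. Alcohol dehydrogenase 3 (Jr2SG00192900), at -0.01 on the log2 scale and not called, ran from -0.23 to 0.28 when single replicates were left out, the highest without 11W replicate 1 (adjusted p = 0.011), and turned to 0.26 without both libraries (adjusted p = 0.0291). The cause of these shifts was not tested.

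With the replicate number as a block, 6954 genes rose and 7550 fell. Same-numbered libraries of the stages correlated at -0.043, 0.052 and 0.029 in their deviations, so the numbers were not taken to pair them. At these depths, genes with few reads have wide intervals. Of simulated 1.5-fold changes 30 of 50 were called, in a simulation with far fewer changed genes than were called in the data.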

Other observations

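Photosynthesis, redox and defence lists held changes in both directions. Of photosynthesis genes 24 of 74 rose, 19 fell and the median log2 change was 0.11. Rubisco activase (Jr5SG00162700) had 451, 535 and 591 CPM in the 11W libraries against 145, 143 and 141 CPM in those of 13W, and CP24, an antenna protein of photosystem II (Jr3SG00156900), had 44.7, 47.7 and 59.5 CPM in the 11W libraries against 6.51, 5.08 and 7.95 CPM in those of 13W. Both fell with no overlap, by 1.88 and 2.96 on the log2 scale, while 10 of 31 rose and 6 fell among photosystem subunits and 8 of 25 rose and 5 fell among chlorophyll a-b binding proteins. Of antioxidant and redox genes 45 of 118 rose, 37 fell and the median log2 change was 0.08, and catalase isozyme 1 (Jr4DG00144800), which breaks down hydrogen peroxide, had 1165, 1209 and 1282 CPM in the 11W libraries against 528, 532 and 489 CPM in those of 13W. Of proteases 37 of 123 rose, 41 fell and the median log2 change was -0.13 (0.00 bounded), and vacuolar-processing enzyme (Jr8SG00028300) rose from 431 ± 66.6 to 589.9 ± 14.4 CPM. Of defence genes 63 of 174 fell, 41 rose and the median log2 change was -0.16 (-0.15 bounded). Glucan endo-1,3-beta-glucosidase 14 (Jr7DG00138800) rose from 96 ± 21.9 to 368 ± 9.24 CPM, and an osmotin-like gene (Jr7DG00094400) fell from 349 ± 49.9 to 93.2 ± 29.2 CPM. Of glutathione transferases and MATE transporters 28 of 74 rose, 17 fell and the median log2 change was 0.17, and of UDP-glycosyltransferases 13 of 49 fell, 11 rose and the median log2 change was -0.12 (0.00 bounded).

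Walnut chromosomes are numbered 1 to 8 with the letter D or S in the deposited table. Of 12795 tested genes on D chromosomes 32.7% rose and 34.8% fell, and of 8867 on S chromosomes 31.3% and 35.3%. Of the tested genes 3523 have no product name, and 2266 of these rose or fell. One of them (Jr6DG00196100, chromosome 6D, 36783951 to 36784551), singled out after its values were seen, had the highest level per length at both stages, 18143 ± 2798 FPKM at 11W and 37810 ± 4292 FPKM at 13W (n = 3).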
